A study of Mus musculus with 40 samples.

Results

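The transcripts described are those of 38 mouse genes of the lysosome and of the MiT/TFE transcription factors, chosen by name. All 38 were found among the 43430 genes of the count table and passed the filter on low counts that left 11853 genes. They fall into 5 groups by role: 5 factors and regulators, 8 membrane and cholesterol transport proteins, 8 cathepsins, 7 other hydrolases and a hydrolase activator, and 10 subunits of the vacuolar proton pump (V-ATPase). RNA was sequenced from bone marrow-derived macrophages (BMDMs), that is, marrow cells grown into macrophages with M-CSF, of 5 WT and 5 NDI1 mice. Each mouse gave 4 libraries (untreated, LPS, piericidin A, and LPS with piericidin A), 40 in all. Piericidin A blocks complex I of the mitochondrial respiratory chain and was given at 500 nM, 30 min ahead of LPS where both were used. LPS, a bacterial cell wall component sensed by TLR4, was given at 100 ng/ml for 4 h. All mice, WT included, carry Vav-iCre, a recombinase expressed in blood-forming cells. NDI1 mice carry in addition a yeast NADH dehydrogenase at Rosa26 behind a stop cassette that the recombinase removes, so that these cells can oxidise NADH while complex I is blocked. The strain is labelled C57/Bl6, with a mixed J and N substrain background for the NDI1 allele by the study's methods. Mice of both sexes aged 8 to 14 weeks were used in the study, and the age of each mouse is not given in the sources used here. Since NDI1 is a yeast gene, a table of mouse genes cannot check the genotype. The comparisons ask how LPS and complex I inhibition change these transcripts, and whether a change made by the inhibitor is also seen where NDI1 bypasses complex I.

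As background, the lysosome breaks down material from endocytosis, phagocytosis and autophagy with acid hydrolases, and the V-ATPase keeps its lumen acid. TFEB, TFE3 and MITF are related basic helix-loop-helix factors that bind E-box sequences in promoters of lysosomal and autophagy genes, and mTORC1 at the lysosomal surface holds them in the cytosol by phosphorylation. RagC and RagD GTPases present the factors to mTORC1, and folliculin (FLCN) acts on these GTPases. Such control acts on the protein and its place in the cell, neither of which RNA-seq measures. In macrophages these genes serve the digestion of engulfed particles and lipids.

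RefSeq promoter windows (build GRCm38.p6, 250 bases before to 50 bases after each start) were at hand for 31 of the 38 genes, with 40 windows. The windows were searched on both strands for CACGTG, the E-box bound by these factors, for TCACGTGA, a longer form of it that also matches CACGTG, and for CATGTG. TCACGTGA lay in the windows of 6 of 31 genes (19.4%), beside 2.29% of the 9228 tested genes with a window and 1.12% of all 27025 genes with one. CACGTG lay in those of 9 genes (29.0%), beside 11.9% and 8.09%, and CATGTG in those of 6 genes (19.4%), beside 10.2% and 15.9%. A match is a description of the letters and was not tested as a binding site. The windows of Tfeb, Tfe3, Mitf, Flcn and Rragd held none of the 3 motifs.

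The stretches are shown because Mcoln1, Gla, Atp6v1a and Atp6v0d1 hold TCACGTGA and rose with piericidin A in WT cells, while Ctsd and Ctsa hold it too and did not pass that test. Of the other members that rose, Rragd, Npc2, Ctsz, Neu1, Atp6v1d and Atp6v1e1 held neither TCACGTGA nor CACGTG in their windows. Atp6v1c1 and Atp6v1h also rose and had no window. A link between the motif and the change was not tested. Lamp1 holds the most CACGTG of any window of these genes (4). Each stretch reads 5′ to 3′ on the gene's strand, with TCACGTGA in capitals, and for Lamp1 each CACGTG in capitals. The first capital base lay 46 bases before the start of Mcoln1, 195 before that of Gla (with a further copy 228 before it), 132 before Atp6v1a, 4 before Atp6v0d1, 99 before Ctsd, 13 before Ctsa in the second of its windows (with a further copy 5 after that start) and 61 before Lamp1.
Mcoln1, chr8:3500443-3500510, plus strand: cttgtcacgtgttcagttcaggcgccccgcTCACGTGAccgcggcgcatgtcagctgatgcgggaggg
Gla, chrX:134601163-134601230, minus strand: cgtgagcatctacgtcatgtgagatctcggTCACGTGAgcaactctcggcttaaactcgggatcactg
Atp6v1a, chr16:44139354-44139421, minus strand: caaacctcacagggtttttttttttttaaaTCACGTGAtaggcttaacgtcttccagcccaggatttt
Atp6v0d1, chr8:105566061-105566098, minus strand: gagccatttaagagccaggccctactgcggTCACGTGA
Ctsd, chr7:142387889-142387956, minus strand: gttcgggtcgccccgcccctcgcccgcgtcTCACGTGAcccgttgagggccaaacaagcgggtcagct
Ctsa, chr2:164833730-164833772, plus strand: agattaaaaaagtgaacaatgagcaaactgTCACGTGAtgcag
Lamp1, chr8:13159091-13159160, plus strand: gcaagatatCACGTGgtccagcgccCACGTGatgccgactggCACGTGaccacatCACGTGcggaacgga

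The libraries held between 6950748 and 13552070 counts, with a median of 10361773.5, and the lowest count of any of the 38 genes in any library was 32. Levels are CPM, that is, counts scaled to library size by TMM, in the order of mouse numbers (449, 452, 453, 496 and 520 for WT, 447, 460, 461, 503 and 521 for NDI1). The scaling factors separated the libraries by LPS, at 1.13 to 1.37 without it and 0.696 to 0.899 with it. Scaling to library totals instead moved the median LPS change of all genes in WT from -0.0076 to -0.78 on the log2 scale. LPS changes below are relative to that median, and a rise smaller than this shift becomes a fall with library totals. Exons of 9 members overlap those of another gene (Lamp1, Npc1, Ctsa, Ctsb, Ctsz, Glb1, Hexa, Atp6v1e1 and Atp6v1h), and whether the counting used strand is not given in the sources used here, so their values carry that doubt. The 4 libraries of mouse 496 (WT) and the 4 of mouse 503 (NDI1) stood apart on the second principal component, which held 7.32% of the variance, with scores of at least 35.3 and 28.1 against at most 13.6 elsewhere. These mice also had the highest summed level of 5 neutrophil and precursor markers in every group of their genotype. It reached 1507 CPM in the LPS with piericidin A library of mouse 496, where the group's median was 104. The same holds for 4 fibroblast and 6 osteoclast markers. All 7 macrophage markers passed the filter, with sums of 6312 to 8954 CPM without LPS and 8504 to 12802 with it, while T cell, erythroid and mast cell markers were at or near 0. The part of these other cells in the results was not tested, and counts are also given without both mice. In RNA of whole cultures, fewer cells of a type and less RNA per cell cannot be told apart.

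In untreated WT cells the aspartic protease Ctsd had the highest level of the 38 per kilobase of transcript, at 6481 CPM per kb (mean, n = 5). It was followed by Psap, the precursor of the saposins that present lipids to hydrolases (5138 CPM per kb), the cysteine proteases Ctsb (3119 CPM per kb) and Ctss (2707 CPM per kb), and Gpnmb, a membrane glycoprotein of lysosomes and melanosomes (2466 CPM per kb). The factors were low beside these effectors, Tfe3 at 44.3, Flcn at 26.8, Tfeb at 25.6 and Mitf at 22.1 CPM per kb, and Rragd was the lowest of all at 8.19. Together the 38 genes took a median of 9.08% of the counts of untreated WT libraries and 5.61% of those with LPS as shares of the raw counts. Between genotypes no member passed the test in untreated cells, with log2 differences of -0.14 to 0.16, and none with LPS alone, with -0.35 to 0.10. Of all tested genes 0% were called in either of these comparisons, no member had an unadjusted p under 0.05 in edgeR, and DESeq2 called none. In edgeR with TMM scaling and no block, 11 of the 38 (Ctsa, Ctsb, Ctsd, Ctsh, Ctsl, Psap, Glb1, Hexa, Lamp1, Gpnmb and Atp6v0c) were called in none of the comparisons described below.

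LPS changed these transcripts in both directions. Tfeb, Flcn and Rragd fell, with log2 changes of -2.74 to -1.86 in WT cells, and Mitf and the cysteine protease Ctsc rose. The log2 change in WT cells was below 0.1 in size for 8 genes, namely Ctsd, Psap, Hexa, Glb1, Gla, Tfe3, Atp6v0c and Atp6v0d1. In WT cells 11 members rose and 7 fell, beside 31.5% of all tested genes higher and 31% lower (edgeR, adjusted p under 0.05), and the median change was 0.12 over the members and -0.0076 over all genes. In NDI1 cells 11 rose and 11 fell, beside 31.5% and 31.2% of all genes, with medians of 0.12 and -0.0057. The lists share 18 members, 18 of 18 called in WT and 18 of 22 called in NDI1 cells, each with the same direction, and no library. The overlap over all tested genes is not given here, so it cannot be said whether the members share more calls than other genes. With scaling to library totals, which moved the median of all genes to -0.78 in WT and -0.77 in NDI1 cells, 3 members rose and 30 fell in WT cells, beside 14.6% of all genes higher and 66.3% lower, and 3 and 31 in NDI1 cells, beside 14.6% and 66.1%. With the mouse as a block, 18 rose and 10 fell in WT cells, beside 36.4% and 35.6% of all genes, and 16 and 12 in NDI1 cells, beside 36.4% and 36% of all genes. The LPS effect did not pass the test of a genotype difference for any member. Log2 differences ran from -0.31 to 0.14, no unadjusted p in edgeR was under 0.05, DESeq2 called none, and 0% of all genes were called, with or without the block.

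Among the factors and regulators Tfeb, Flcn and Rragd fell, Mitf rose and Tfe3 did not pass. Tfeb (chr17:47737030-47792419, mm10) was at 60.1, 59.6, 52.1, 61.1 and 61.0 CPM in untreated WT cells and at 7.21, 8.54, 11.6, 6.58 and 9.99 CPM with LPS, a log2 change of -2.74 ± 0.24 (SE, adjusted p = 1.16e-12). In NDI1 cells Tfeb went from 57.6, 50.04, 63.3, 61.3 and 53.5 CPM to 8.89, 9.82, 13.5, 8.83 and 5.15 CPM, a change of -2.63 ± 0.23 (SE, adjusted p = 2.76e-12). Every LPS library lay below every untreated library in both genotypes. Its relative Tfe3 was at 135, 145, 123, 166 and 157 CPM without and 146, 147, 128, 187 and 140.4 CPM with LPS in WT cells (0.045 ± 0.13 SE, adjusted p = 0.774), and the groups overlapped. For Tfe3 in NDI1 cells the values were 136, 134, 133, 162 and 134 CPM and 156, 166, 166, 178 and 114 CPM (0.16 ± 0.13 SE, adjusted p = 0.287). Mitf rose. Its level was 96.3, 94.5, 59.8, 136 and 153 CPM in untreated WT cells and 354, 296, 221, 351 and 384 CPM with LPS (1.57 ± 0.27 SE, adjusted p = 5.33e-06). In NDI1 cells the values were 91.6, 74.7, 86.6, 160.4 and 139.8 CPM and 313, 235, 380.2, 376 and 363 CPM (1.59 ± 0.27 SE, adjusted p = 4.53e-06). It rose in all 10 mice, and the groups did not overlap in either genotype. Rragd (chr4:32983037-33022180), the gene of the RagD GTPase, fell from 49.8, 52.3, 54.4, 25.8 and 22.8 CPM to 13.6, 12.1, 16.8, 4.39 and 9.23 CPM in WT cells (-1.86 ± 0.29 SE, adjusted p = 1.08e-06). NDI1 cells went from 52.5, 40.6, 50.3, 31.1 and 25.9 CPM to 15.4, 7.11, 8.37, 4.68 and 8.55 CPM (-2.17 ± 0.30 SE, adjusted p = 7.99e-08). Mice 496 and 520 had the lowest untreated Rragd of the WT mice, and 503 and 521 that of the NDI1 mice. Flcn had a log2 change of -2.61 ± 0.18 (SE, adjusted p = 5.38e-15) in WT and -2.53 ± 0.18 (SE, adjusted p = 1.13e-14) in NDI1 cells. Its mean went from 83.0 ± 8.04 to 13.5 ± 3.21 CPM in WT cells (SD, n = 5). The falls of Tfeb, Flcn and Rragd and the rise of Mitf kept their direction with scaling to library totals.

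**Figure D1:**
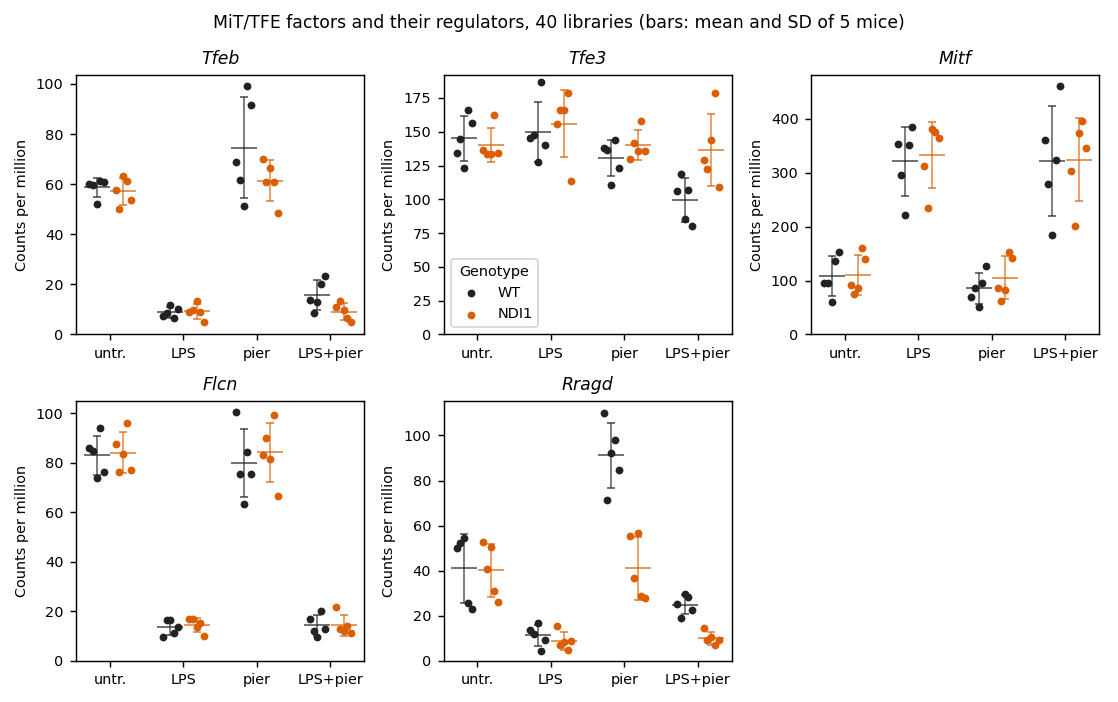
CPM (vertical axis, linear from 0) of Tfeb, Tfe3, Mitf, Flcn and Rragd in WT (black) and NDI1 (orange) BMDMs, untreated (untr.), with LPS, with piericidin A (pier) or with both, 1 point per library from left to right in order of mouse number, with the mean and SD of 5 mice. Tfeb and Flcn are lower and Mitf is higher in all libraries with LPS than in any without it, and Rragd with piericidin A is at 71.3 to 110.1 CPM in WT and 27.8 to 56.7 CPM in NDI1 cells.

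Of the 8 membrane and cholesterol transport genes, 3 rose and 1 fell with LPS in each genotype, and the median change in WT cells was 0.25. Npc1 and Npc2 encode the membrane-bound and the soluble protein that pass cholesterol out of the lysosome, and they moved in opposite directions. Npc1 was at 360.5, 378, 362, 442 and 291 CPM in untreated and 171, 189, 199, 213 and 148 CPM in LPS-treated WT cells (-0.99 ± 0.18 SE, adjusted p = 8.66e-06). In NDI1 cells it was at 409.9, 329.6, 375, 425 and 272 CPM and 210.2, 140.0, 169, 202 and 133 CPM (-1.09 ± 0.18 SE, adjusted p = 2.11e-06). The groups did not overlap in either genotype, while exons of Npc1 overlap those of Gm15956 and Rmc1 on the opposite strand. Npc2 rose by 0.80 ± 0.089 (SE, adjusted p = 6.58e-10) in WT and 0.80 ± 0.089 (SE, adjusted p = 7.13e-10) in NDI1 cells. The structural glycoprotein gene Lamp2 rose by 0.82 ± 0.11 (SE, adjusted p = 2.53e-08) in WT and 0.69 ± 0.11 (SE, adjusted p = 8.46e-07) in NDI1 cells. The tetraspanin gene Cd63 rose by 0.34 ± 0.12 (SE, adjusted p = 0.0166) and 0.33 ± 0.12 (SE, adjusted p = 0.0188). With scaling to library totals Npc2 and Lamp2 in WT cells were at 0.017 and 0.037, Lamp2 in NDI1 cells was lower at -0.092, and Cd63 was lower, at -0.43 in each genotype. Lamp1 (0.24 ± 0.11, SE), the calcium channel gene Mcoln1 (0.20 ± 0.10) and Scarb2 (0.26 ± 0.13), the receptor that carries glucocerebrosidase to the lysosome, did not pass in WT cells but were called higher with the mouse as a block (adjusted p of 0.000532, 0.0421 and 0.0022). Gpnmb changed by 0.17 ± 0.35 and did not pass in either fit.

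Among the 8 cathepsin genes 3 rose with LPS and none fell in each genotype, with a median of 0.26 in WT cells. Ctsc (chr7:88278085-88310888), whose product activates serine proteases of granules, had the largest fitted change of the 38 genes in each genotype. Its level was 224, 232, 168, 445 and 351 CPM in untreated and 2547, 1962, 1301, 3328 and 2533 CPM in LPS-treated WT cells (3.04 ± 0.36 SE, adjusted p = 2.7e-09). In NDI1 cells the values were 177, 219.7, 159.8, 439.9 and 296 CPM and 1625, 1703, 2219.7, 3198 and 2251 CPM (3.09 ± 0.36 SE, adjusted p = 2.01e-09). The lowest LPS library lay above the highest untreated library in both genotypes, and mouse 496 was the highest of the WT mice in both groups, as mouse 503 was of the NDI1 mice. Ctsz, a carboxypeptidase, went from 748, 966, 1019.8, 1074 and 927 CPM to 1279, 1349, 1426, 1487 and 1201 CPM in WT cells (0.51 ± 0.14 SE, adjusted p = 0.00204). NDI1 cells went from 999, 924, 719.6, 1056 and 798 CPM to 1431, 1561, 1188, 1359 and 1153 CPM (0.57 ± 0.14 SE, adjusted p = 0.000622). Ctss, an elastase-like protease of antigen presentation, rose by 0.40 ± 0.14 (SE, adjusted p = 0.0127) and 0.33 ± 0.14 (SE, adjusted p = 0.0374). Only Ctsc of these 3 kept its direction with scaling to library totals, where Ctsz was at -0.26 and -0.19 and Ctss at -0.39 and -0.44 in WT and NDI1 cells. Ctsa, Ctsb, Ctsh and Ctsl, between 0.15 and 0.32 in WT cells, were called higher there with the block alone (adjusted p of 0.0337, 0.0071, 0.000678 and 0.0358), and Ctsd changed by -0.059 ± 0.23 (SE).

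Of the 7 other hydrolases and activator none rose with LPS, and 2 fell in WT and 3 in NDI1 cells. Neu1, the sialidase that trims sialic acid from glycoconjugates, was at 84.1, 82.7, 90.8, 76.1 and 67.6 CPM in untreated and 50.2, 50.3, 68.8, 43.6 and 48.0 CPM in LPS-treated WT cells (-0.62 ± 0.12 SE, adjusted p = 3.11e-05). In NDI1 cells Neu1 was at 81.7, 84.4, 88.5, 79.9 and 80.5 CPM and 54.7, 61.0, 51.4, 44.7 and 52.7 CPM (-0.65 ± 0.12 SE, adjusted p = 1.6e-05). The groups of NDI1 cells did not overlap, and those of WT cells overlapped through mouse 453 at 68.8 CPM with LPS and mouse 520 at 67.6 CPM without. Lipa, the acid lipase that frees cholesterol and fatty acids from engulfed lipoproteins, fell by 0.59 ± 0.18 (SE, adjusted p = 0.00458) in WT and 0.71 ± 0.18 (SE, adjusted p = 0.000855) in NDI1 cells on the log2 scale. The β-glucuronidase Gusb was lower in NDI1 cells (-0.47 ± 0.17 SE, adjusted p = 0.0159). In WT cells Gusb was called lower by edgeR with the block (-0.39 ± 0.088, adjusted p = 0.000212) and by DESeq2, but not by edgeR without the block. Gla, the α-galactosidase, stood at 265, 246, 319, 231 and 233 CPM and 268, 239.9, 298, 231 and 249 CPM in WT cells (-0.011 ± 0.12 SE, adjusted p = 0.945), groups that overlapped. Gla in NDI1 cells stood at 268, 273, 259, 231 and 267 CPM and 238, 187, 222, 224 and 291 CPM (-0.16 ± 0.12 SE, adjusted p = 0.235). Glb1, Hexa and Psap were within 0.1 of 0 on the log2 scale in both genotypes.

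The V-ATPase consists of a membrane sector (V0) that moves protons and a cytosolic sector (V1) that hydrolyses ATP. Of the 10 genes, 4 rose and 1 fell in WT cells and 4 rose and 4 fell in NDI1 cells, and all those that rose encode V1 subunits. Atp6v1e1, of the V1 stalk, was at 134, 145, 149, 144 and 152 CPM in untreated and 411, 403, 351, 483 and 462 CPM in LPS-treated WT cells (1.54 ± 0.11 SE, adjusted p = 5.63e-15). In NDI1 cells its values were 153, 140.3, 143, 152 and 168 CPM and 387, 364, 413, 477 and 453 CPM (1.47 ± 0.11 SE, adjusted p = 2.1e-14). The lowest LPS library lay above the highest untreated library in both genotypes. The rotor gene Atp6v1d rose by 0.68 ± 0.11 (SE, adjusted p = 2.36e-06) in WT cells, Atp6v1h by 0.50 ± 0.13 (SE, adjusted p = 0.000847) and the B subunit gene Atp6v1b2 by 0.35 ± 0.084 (SE, adjusted p = 0.000467). All 3 turned negative with scaling to library totals, in each genotype. Atp6v0a1, of the V0 sector, fell by 0.81 ± 0.20 (SE, adjusted p = 0.000478) in WT and 0.67 ± 0.19 (SE, adjusted p = 0.00322) in NDI1 cells on the log2 scale. Called lower in NDI1 but not in WT cells without a block were Atp6v0d2 (-0.85 ± 0.36), Atp6v1a (-0.31 ± 0.14) and Atp6v1c1 (-0.44 ± 0.16). The difference between genotypes in these 3 did not pass its own test, and with the block Atp6v0d2 and Atp6v1c1 were lower in WT cells too (adjusted p of 1.93e-07 and 0.00293). Atp6v1c1, the C subunit that links the sectors, went from 246, 231, 275, 193 and 229 CPM to 189, 171, 235, 149.8 and 201 CPM in WT cells (-0.31 ± 0.16 SE, adjusted p = 0.0948). NDI1 cells went from 278, 232, 239, 189 and 283 CPM to 205, 146, 171, 137 and 239 CPM (-0.44 ± 0.16 SE, adjusted p = 0.0189), with overlap in both. Atp6v0c and Atp6v0d1 were at 0.010 ± 0.14 and -0.090 ± 0.10 (SE) in WT cells.

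Genes of the same pathway outside the 38 were read from 6 lists of 126 genes, of which 122 were tested. Their counts with LPS in WT cells stand beside 31.5% of all tested genes higher and 31% lower. Of 33 autophagy genes 8 rose and 19 fell with LPS in WT cells, with a median of -0.64. The 3 largest falls were those of the kinase gene Ulk1 at -2.20 (adjusted p = 1.33e-10), the receptor gene Nbr1 at -1.87 (adjusted p = 8.81e-12) and the kinase gene Ulk2 at -1.62 (adjusted p = 6.34e-10). Among 19 further membrane proteins 5 rose and 8 fell, led by the cystine transporter gene Ctns at -2.28 (adjusted p = 1.57e-12), the channel gene Tpcn1 at -1.53 (adjusted p = 9.81e-06) and the amino acid transporter gene Slc36a1 at -1.32 (adjusted p = 2.12e-06). Of 34 further hydrolases 6 rose and 6 fell, with the tartrate-resistant phosphatase Acp5 at 3.25 (adjusted p = 1.84e-10), the sulfatase Sgsh at -2.52 (adjusted p = 8.49e-12) and the phospholipase Pla2g15 at -2.32 (adjusted p = 1.59e-08). Acp5 also serves as an osteoclast marker, and the other 3 osteoclast markers tested, Dcstamp, Ctsk and Mmp9, were at -0.96, -0.14 and 0.82 and did not pass. Of 10 other V-ATPase genes 5 rose and none fell, among them the a3 and a2 subunit genes Tcirg1 at 1.07 (adjusted p = 7.65e-09) and Atp6v0a2 at 0.86 (adjusted p = 1.12e-07), and Atp6v0b at 0.75 (adjusted p = 6.49e-06). Of 9 sorting genes 3 rose and 4 fell, with Gnptab, which builds the mannose 6-phosphate tag, at 0.92 (adjusted p = 1.4e-07), the receptor gene M6pr at 0.87 (adjusted p = 0.000204) and the adaptor gene Gga2 at -1.16 (adjusted p = 3.35e-07). Of 17 genes of the Rag, Ragulator, folliculin and mTORC1 group 4 rose and 3 fell, among them Tfec, the remaining MiT/TFE member, at 2.48 (adjusted p = 1.07e-10), Mlst8 at -1.33 (adjusted p = 2.27e-10) and the folliculin partner Fnip2 at -0.92 (adjusted p = 0.000335). Exons of Sgsh, Atp6v0b, Gnptab and Mlst8 overlap those of a gene on the opposite strand.

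Piericidin A without LPS raised Rragd, Mcoln1, Gla, Neu1 and 6 V-ATPase transcripts among others in WT cells, and no change in NDI1 cells passed the test. In WT cells 12 members rose and 1 fell, beside 7.79% of all tested genes higher and 7.05% lower, and the median change was 0.22 over the 38 and -0.0004 over all genes. The 12 were Rragd, Mcoln1, Npc2, Ctsz, Gla, Neu1 and 6 of the 10 V-ATPase genes, with log2 changes of 0.32 to 1.15, and Scarb2 fell by 0.37 ± 0.13 (SE, adjusted p = 0.0465). The count rested in part on single mice: 7 members were called without mouse 496, 8 without mouse 520 and 7 without 496 and 503 together, each time with none lower, beside 3.91%, 4.44% and 4.52% of all genes higher. With the mouse as a block 21 rose and 3 fell, beside 17.2% and 16.9% of all genes, and 15 and 2 with 496 and 503 left out of that fit, beside 11.8% and 10.9%. In NDI1 cells 0 members were called by edgeR and by DESeq2, with 0% of all genes called, with or without the block. The number with an unadjusted p under 0.05 was 0 in edgeR without and 1 with the block, and log2 changes ran from -0.11 to 0.18 with a median of 0.038. Of 23 tested markers of macrophages and of other cells none was called in WT cells. The median log2 change was 1.52 over 4 tested neutrophil and precursor markers, 1.59 over 3 B cell markers, 0.81 over 3 fibroblast markers, 0.63 over 2 dendritic cell markers, 0.46 over 4 osteoclast markers and -0.0050 over 7 macrophage markers. In NDI1 cells the same medians were 0.34, 0.38, 0.040, 0.21, 0.099 and -0.0095. The summed level of the B cell markers was at most 11.6 CPM in any WT library. Their part in these changes was not tested.

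Of the factors and regulators Rragd alone was called. It was at 110.1, 71.3, 92.0, 97.8 and 84.7 CPM with piericidin A in WT cells, against the untreated values given above, a log2 change of 1.15 ± 0.27 (SE, adjusted p = 0.00387), with single mice at 0.45 to 1.91. The lowest treated library lay above the highest untreated library, and the largest changes were those of mice 496 and 520, which began lowest. In NDI1 cells Rragd was at 55.2, 36.8, 56.7, 28.6 and 27.8 CPM (0.035 ± 0.27 SE, adjusted p = 1), and the groups overlapped. Tfeb was at 68.9, 61.6, 51.3, 99.1 and 91.8 CPM in WT cells (0.34 ± 0.21 SE, adjusted p = 0.288), with the high values in mice 496 and 520. In NDI1 cells the level was 69.9, 61.0, 66.6, 61.0 and 48.3 CPM (0.10 ± 0.21 SE, adjusted p = 1). Tfe3 was at 138, 136, 111, 144 and 123 CPM in WT cells (-0.15 ± 0.13 SE, adjusted p = 0.448). In NDI1 cells it was at 129.9, 142, 135, 158 and 136 CPM (0.0022 ± 0.13 SE, adjusted p = 1). Mitf was at 69.2, 86.1, 50.2, 95.4 and 127 CPM in WT cells, below the untreated value of the same mouse in 5 of 5 mice (-0.34 ± 0.27 SE, adjusted p = 0.434). It was called lower with the block alone (-0.33 ± 0.12, adjusted p = 0.03). In NDI1 cells Mitf was at 86.7, 61.5, 82.0, 153 and 142 CPM (-0.075 ± 0.27 SE, adjusted p = 1). Flcn was at -0.055 ± 0.17 (SE).

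The 6 V-ATPase genes that rose were Atp6v1c1, Atp6v1d, Atp6v1a, Atp6v1e1, Atp6v1h and, of the V0 sector, Atp6v0d1, and the median over the 10 genes was 0.51. Atp6v1c1 reached 394, 361, 457, 438 and 511 CPM in WT cells (0.88 ± 0.16 SE, adjusted p = 0.000292), above every untreated library, with single mice at 0.64 to 1.18. In NDI1 cells the same gene was at 333, 217, 280.0, 186 and 289 CPM (0.10 ± 0.16 SE, adjusted p = 1), with changes of -0.10 to 0.26 in single mice. Atp6v1e1 was at 177, 183, 201, 256 and 255 CPM in WT cells (0.57 ± 0.11 SE, adjusted p = 0.000302), highest in mice 496 and 520 and above every untreated library in all 5 mice. For Atp6v1e1 in NDI1 cells the values were 194, 144, 147, 151 and 167 CPM (0.087 ± 0.11 SE, adjusted p = 1). Atp6v1d rose by 0.68 ± 0.11 (SE, adjusted p = 4.75e-05), the catalytic A subunit gene Atp6v1a by 0.59 ± 0.14 (SE, adjusted p = 0.00312), Atp6v1h by 0.45 ± 0.13 (SE, adjusted p = 0.0126) and Atp6v0d1 by 0.42 ± 0.10 (SE, adjusted p = 0.00476). The promoter stretches of Atp6v1a and Atp6v0d1 above hold TCACGTGA, while the windows of Atp6v1d and Atp6v1e1 held neither TCACGTGA nor CACGTG. Atp6v0d2, the d2 subunit found in osteoclasts and macrophages, had single-mouse changes of 0.63 to 1.13 in WT cells, from untreated levels of 54.8 to 148 CPM and treated levels of 115 to 229 CPM. It was called higher with the block alone (0.83 ± 0.10, adjusted p = 2.62e-07, against 0.141 without it). Atp6v0c was likewise called with the block alone (0.39 ± 0.068, adjusted p = 4.32e-05). Atp6v0a1 and Atp6v1b2 were at -0.16 ± 0.19 and -0.00037 ± 0.084 (SE).

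**Figure D2:**
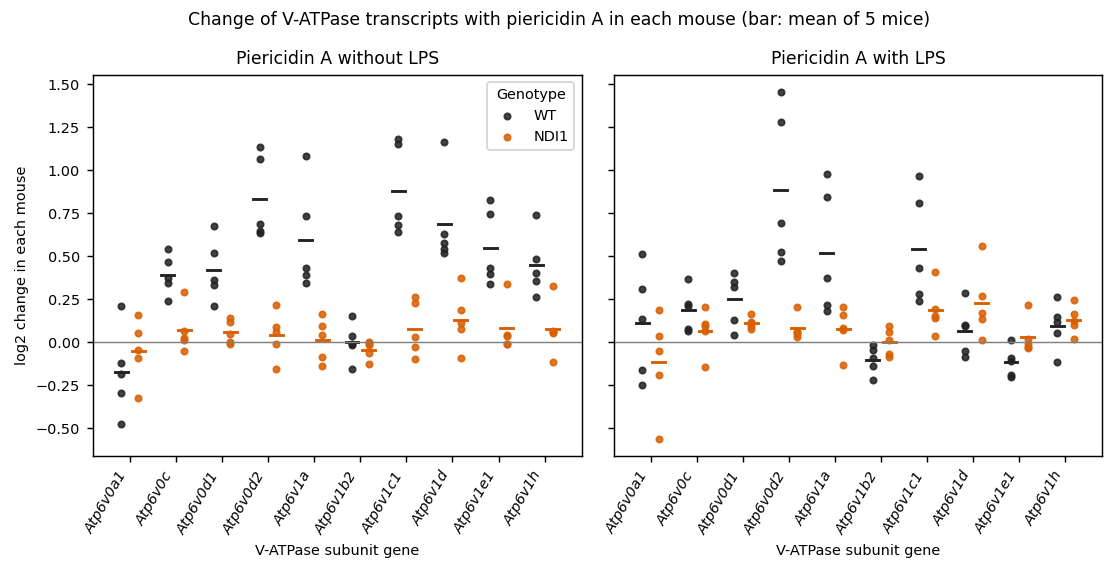
log2 change (vertical axis) of the 10 V-ATPase genes with piericidin A in each of 5 WT (black) and 5 NDI1 (orange) mice, without LPS (left) and with LPS (right), with bars at the mean of 5 mice. Without LPS 8 of 10 genes lie above 0 in every WT mouse, as for Atp6v1c1 at 0.64 to 1.18, while single NDI1 mice lie at -0.32 to 0.37 over the 10 genes. The share of all tested genes that lie above 0 in every WT mouse without LPS is not given here.

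Of the membrane and transport genes Mcoln1 and Npc2 rose with piericidin A and Scarb2 fell. Mcoln1 encodes the lysosomal calcium channel TRPML1, and its promoter stretch above holds TCACGTGA. Mcoln1 was at 45.1, 37.5, 37.5, 33.4 and 31.5 CPM in untreated WT cells and at 51.0, 47.5, 54.2, 59.97 and 52.5 CPM with piericidin A (0.52 ± 0.10 SE, adjusted p = 0.00037). Every treated library lay above every untreated one. In NDI1 cells Mcoln1 was at 39.6, 37.4, 45.9, 36.9 and 34.2 CPM and 44.1, 40.7, 43.1, 36.8 and 36.3 CPM (0.052 ± 0.10 SE, adjusted p = 1), with overlap. Npc2 rose by 0.32 ± 0.088 (SE, adjusted p = 0.0116), while Npc1, at 354, 401, 390.2, 297 and 268 CPM in WT and 289.6, 363, 398, 426 and 286 CPM in NDI1 cells, was at -0.10 ± 0.18 and -0.039 ± 0.18 (SE) and overlapped its untreated range. Lamp1, Lamp2, Cd63 and Gpnmb, at 0.17, 0.22, 0.25 and 0.26, were called higher with the block alone (adjusted p of 0.0204, 0.0361, 0.0132 and 0.00463).

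Ctsz was the cathepsin gene that passed. Its level with piericidin A was 1039.8, 1194, 1355, 1636 and 1226 CPM in WT cells (0.45 ± 0.14 SE, adjusted p = 0.0284). The NDI1 values were 1319.6, 1055, 779, 1090.0 and 862 CPM (0.18 ± 0.14 SE, adjusted p = 1). The treated and untreated ranges overlapped in WT cells, where each mouse rose, by 0.31 to 0.61. Ctsc was at 195, 201, 115, 386 and 273 CPM in WT cells (-0.28 ± 0.33 SE, adjusted p = 0.616). NDI1 cells had 173, 177, 153, 461 and 281 CPM (-0.055 ± 0.33 SE, adjusted p = 1). Ctsb and Ctsl, at 0.18 and 0.28, were called higher with the block alone (adjusted p of 0.0241 and 0.00858), and Ctsa, Ctsd, Ctsh and Ctss lay between 0.13 and 0.21 and were called in neither fit. Among the other hydrolases Gla and Neu1 rose. Gla was at 385, 330.1, 433, 421 and 435 CPM in WT cells, all above the untreated libraries (0.63 ± 0.12 SE, adjusted p = 0.000258). Libraries of NDI1 cells held 320.2, 238, 288, 219 and 261 CPM, which overlapped their untreated range (0.032 ± 0.12 SE, adjusted p = 1). Neu1 was at 97.0, 99.4, 113, 128 and 102 CPM in WT cells, all above the untreated libraries (0.43 ± 0.12 SE, adjusted p = 0.0129). Its NDI1 values were 98.4, 98.2, 87.7, 70.8 and 80.2 CPM (0.069 ± 0.12 SE, adjusted p = 1). Gusb was lower in 5 of 5 WT mice, at -0.79 to -0.20. It was called lower by edgeR with the block (-0.51 ± 0.088, adjusted p = 4.23e-05) but not without it (adjusted p = 0.0568), and by DESeq2 (-0.49). Hexa, at 0.22, was called with the block alone (adjusted p = 0.03), and Glb1, Lipa and Psap lay between 0.033 and 0.12. With scaling to library totals, which moved the median of all genes to -0.13, the members' median was 0.087, 7 were called higher and 2 lower, beside 4.24% and 14.4% of all genes, and Npc2, Ctsz, Neu1, Atp6v0d1 and Atp6v1h no longer passed.

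**Figure D3:**
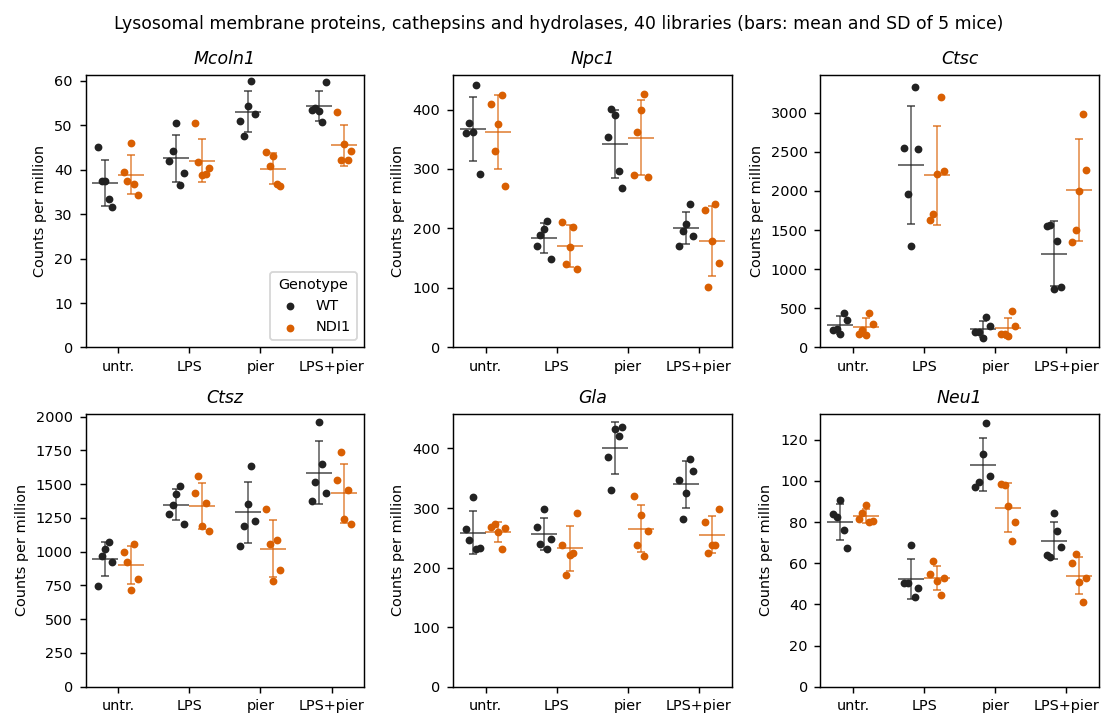
CPM (vertical axis, linear from 0) of Mcoln1, Npc1, Ctsc, Ctsz, Gla and Neu1 in WT (black) and NDI1 (orange) BMDMs, untreated (untr.), with LPS, with piericidin A (pier) or with both, 1 point per library with the mean and SD of 5 mice. Gla with piericidin A lies at 330.1 to 435 CPM in WT and 219 to 320.2 CPM in NDI1 cells, and Ctsc is high in all libraries with LPS.

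Genes of the pathway outside the 38 also moved with piericidin A in WT cells, and none of those named here passed in NDI1 cells. The share of all tested genes was 7.79% higher and 7.05% lower. Of 10 other V-ATPase genes 3 rose, Atp6v1g1 by 0.70 (adjusted p = 0.000537), Atp6v1f by 0.46 (adjusted p = 0.0271) and Atp6v0e by 0.37 (adjusted p = 0.0305). Of 17 genes of the Rag, Ragulator, folliculin and mTORC1 group 4 rose and 1 fell, with Fnip2 at 1.01 (adjusted p = 0.00122), Rragc at 0.58 (adjusted p = 0.00142) and Lamtor3 at 0.56 (adjusted p = 0.0121). Of 33 autophagy genes 5 rose and 2 fell, with the mitophagy receptor gene Optn at 1.24 (adjusted p = 5.27e-05), Uvrag at 0.57 (adjusted p = 0.000473) and Ulk2 at -0.65 (adjusted p = 0.0087). Of 34 further hydrolases 2 rose and 1 fell, with Aga at 0.45 (adjusted p = 0.0246) and Galc at -0.66 (adjusted p = 0.00581). Of 19 further membrane proteins 1 rose and 1 fell, Tmem192 at 0.38 (adjusted p = 0.043) and Abca2 at -0.72 (adjusted p = 0.0279). No sorting gene of 9 was called by edgeR, with 1 at an unadjusted p under 0.05 and 0 called by DESeq2. Exons of Optn and Rragc overlap those of a gene on the opposite strand. With the block, where 17.2% of all genes were higher and 16.9% lower, 15 of the 34 further hydrolases rose and 3 fell. The counts in the other lists were 5 and 1 for V-ATPase, 7 and 5 for membrane proteins, 1 and 2 for sorting, 7 and 2 for the Rag group and 10 and 7 for autophagy.

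Given ahead of LPS, piericidin A raised Tfeb, Rragd and effectors such as Gla and Mcoln1 and lowered Tfe3 and Ctsc in WT cells, and again no change in NDI1 cells passed. Against LPS alone 7 members rose (Tfeb, Rragd, Mcoln1, Gla, Neu1, Atp6v1a and Atp6v1c1) and 2 fell (Tfe3 and Ctsc), beside 7.81% of all tested genes higher and 8.92% lower. The median was 0.070 over the members and -0.016 over all genes. Of the 13 members called without LPS and the 9 called with it, 6 were in both (6 of 13 and 6 of 9), each higher: Rragd, Mcoln1, Gla, Neu1, Atp6v1a and Atp6v1c1. The overlap over all tested genes is not given here, so it cannot be said whether the members share more calls than other genes. The libraries behind the 2 lists differ, and the mice are the same. The count fell to 1 without mouse 496, to 2 without mouse 520, to 2 without 496 and 503 together and to 3 with only the compared groups in the fit. Of all genes 3.85% were then higher and 3.32% lower without 496, 3.71% and 3.41% without 520, 4.53% and 3.53% without both 496 and 503, and 4.28% and 2.19% with only the compared groups. With the mouse as a block it was 13 higher and 4 lower, beside 15.6% and 18.9% of all genes, and 9 and 4 with 496 and 503 left out of that fit, beside 10.4% and 12%. In NDI1 cells edgeR and DESeq2 called 0 members, and 0% of all genes were called with or without the block. The number with an unadjusted p under 0.05 was 0 in edgeR without the block, 2 with it and 1 in DESeq2, and log2 changes ran from -0.19 to 0.22. By the direction in single mice, 8 of the 38 members were higher in 5 of 5 NDI1 mice and 0 lower, beside 4.39% of all tested genes higher and 4.63% lower in every mouse. These were Mcoln1, Ctsz, Gla and the V-ATPase genes Atp6v0d1, Atp6v0d2, Atp6v1c1, Atp6v1d and Atp6v1h, and the groups overlapped for each but Atp6v1d. In WT cells 14 members were higher and 6 lower in 5 of 5 mice, beside 16.1% and 21.5% of all genes. No tested marker was called in WT cells, where the median change was 1.22 over the neutrophil and precursor, 1.41 over the B cell, 0.87 over the fibroblast, 1.00 over the dendritic cell, 0.21 over the osteoclast and 0.014 over the macrophage markers.

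Tfeb with both agents was at 13.7, 8.57, 13.0, 20.3 and 23.4 CPM in WT cells, against the LPS values above (0.84 ± 0.24 SE, adjusted p = 0.0124), with mice 496 and 520 again the highest and single mice at 0.0046 to 1.601. The ranges overlapped, and the level stayed below every library without LPS. This call rested on single mice, with adjusted p of 0.125 without mouse 496, 0.0965 without mouse 520 and 0.133 without 496 and 503. It was 0.0701 with only the compared groups, and 0.00353 with the mouse as a block but 0.0543 with 496 and 503 left out of that fit. In NDI1 cells Tfeb was at 10.9, 13.3, 9.58, 6.57 and 5.17 CPM (-0.014 ± 0.24 SE, adjusted p = 1). Tfe3 fell with both agents against LPS alone, to 106, 118, 85.6, 107 and 80.2 CPM in WT cells (-0.59 ± 0.13 SE, adjusted p = 0.00152), below every LPS library. For NDI1 cells the Tfe3 values were 129, 122, 144, 179 and 109 CPM (-0.19 ± 0.13 SE, adjusted p = 1). Mitf did not pass, at 359.8, 279.8, 184, 323 and 462 CPM in WT (0.0026 ± 0.27 SE, adjusted p = 0.996). The 5 NDI1 libraries had 304, 202, 374, 396 and 346 CPM (-0.040 ± 0.27 SE, adjusted p = 1). Rragd was at 25.2, 19.1, 29.8, 28.3 and 22.5 CPM in WT cells, above every LPS library (1.14 ± 0.30 SE, adjusted p = 0.00735). The Rragd values of NDI1 cells were 14.6, 9.01, 10.4, 6.86 and 9.23 CPM (0.18 ± 0.31 SE, adjusted p = 1), and these overlapped the LPS values. Flcn was at 0.087 ± 0.19 (SE) in WT cells.

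Mcoln1 was at 42.0, 44.1, 50.5, 36.6 and 39.3 CPM with LPS and 53.5, 54.0, 53.3, 50.8 and 59.8 CPM with both agents in WT cells (0.35 ± 0.10 SE, adjusted p = 0.014), without overlap. In NDI1 cells it was at 50.5, 41.7, 38.7, 38.9 and 40.3 CPM and 53.0, 42.1, 45.8, 42.1 and 44.2 CPM (0.11 ± 0.10 SE, adjusted p = 1). With both agents Gla was at 347, 281, 326, 383 and 361 CPM in WT cells (0.40 ± 0.12 SE, adjusted p = 0.016). In NDI1 cells it was at 276, 224, 238, 239 and 299 CPM (0.14 ± 0.12 SE, adjusted p = 1). In both genotypes these values overlapped the LPS range and were higher than with LPS alone in 5 of 5 mice. Neu1 was at 63.9, 63.0, 84.5, 75.5 and 68.1 CPM in WT cells (0.44 ± 0.12 SE, adjusted p = 0.0104), higher than with LPS alone in 5 of 5 mice. NDI1 cells held 60.4, 64.6, 51.0, 41.2 and 52.6 CPM (0.028 ± 0.12 SE, adjusted p = 1). Ctsc fell from its LPS level to 1548, 1569, 753, 1366 and 769 CPM in WT cells (-0.96 ± 0.33 SE, adjusted p = 0.0438), by most in mouse 520 and by least in mouse 452, with single mice at -1.72 to -0.32. Its values in NDI1 cells were 1349.8, 1495, 1996, 2979.6 and 2267 CPM (-0.12 ± 0.33 SE, adjusted p = 1), in the range of LPS alone except for mice 447 and 460. Ctsz, at 1373, 1514, 1959, 1652 and 1431 CPM in WT cells (0.23 ± 0.14 SE, adjusted p = 0.26), was called with the block alone (adjusted p = 0.026). In NDI1 cells it was at 1530.4, 1735, 1241, 1457 and 1204 CPM (0.10 ± 0.14 SE, adjusted p = 1). Npc1 was at 170.0, 196, 208, 241 and 188 CPM in WT (0.12 ± 0.18 SE, adjusted p = 0.672). The NDI1 values were 231, 102, 179, 240.4 and 142 CPM (0.065 ± 0.18 SE, adjusted p = 1). Gusb was lower in 5 of 5 WT mice and called with the block alone (-0.45 ± 0.088, adjusted p = 0.00022), as was Scarb2 (-0.29 ± 0.078, adjusted p = 0.00437). The remaining membrane proteins, cathepsins and hydrolases lay between -0.17 and 0.25, of which Ctsl and Gpnmb were called higher with the block.

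Of the V-ATPase genes Atp6v1c1 and Atp6v1a rose. Atp6v1c1 was at 255, 202, 285, 293 and 353 CPM in WT cells (0.55 ± 0.16 SE, adjusted p = 0.018), higher in 5 of 5 mice with overlap of the groups. The NDI1 libraries were at 226, 193, 191, 157 and 245 CPM (0.17 ± 0.16 SE, adjusted p = 1), also higher in 5 of 5 mice with overlap. Atp6v1a rose by 0.53 ± 0.14 (SE, adjusted p = 0.00651). Atp6v1e1 was at 382, 378, 354, 421 and 405 CPM in WT cells (-0.12 ± 0.11 SE, adjusted p = 0.457). NDI1 cells had 379, 422, 403, 484 and 450.4 CPM (0.030 ± 0.11 SE, adjusted p = 1), overlapping the values with LPS alone. Atp6v0d2, Atp6v0d1 and Atp6v0c, at 0.78, 0.26 and 0.20, were called higher with the block alone (adjusted p of 3.84e-07, 0.00339 and 0.0313). The effect of piericidin A on the log2 scale differed with LPS for 2 of the 38 genes in WT cells by the test of the difference itself. These were Atp6v1e1, with a log2 difference of -0.69 ± 0.15 (SE, adjusted p = 0.00488), and Atp6v1d, with -0.62 ± 0.16 (SE, adjusted p = 0.0162). Atp6v1d in WT cells had means of 89.1 ± 10.3 CPM untreated, 143 ± 13.5 with piericidin A, 143 ± 15.5 with LPS and 149 ± 8.89 with both (SD, n = 5). Its level with each agent alone and with both lay in 1 range, of 119 to 163 CPM, above that of untreated libraries. Of all tested genes 2.59% had a higher and 2.16% a lower effect with LPS in WT cells. The pair was reduced to 1 without mouse 449 and to 0 without mouse 496 or without 496 and 503 together. The share of all genes called in these fits is not given here. With the block 6 were called, all lower (Tfe3, Lamp2, Npc2, Atp6v1d, Atp6v1e1 and Atp6v1h), beside 7.95% and 9.48% of all genes, and 2 without 496 and 503, both lower, beside 3.94% and 4.27%. In NDI1 cells 0 members and 0% of all genes were called, with or without the block, with no unadjusted p under 0.05 in edgeR and none called by DESeq2.

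Counts outside the 38 genes stand beside 7.81% of all tested genes higher and 8.92% lower. Against LPS alone 6 of 33 autophagy genes rose and 3 fell in WT cells, with Nbr1 at 0.65 (adjusted p = 0.00757), Gabarapl1 at 0.64 (adjusted p = 0.00144) and Atg9a at -0.73 (adjusted p = 0.00396). Of 34 further hydrolases 3 rose, Pla2g15 by 1.43 (adjusted p = 0.000808), Sgsh by 0.96 (adjusted p = 0.00421) and Dnase2a by 0.37 (adjusted p = 0.0322). Membrane proteins had 2 higher and 1 lower of 19, with Ctns at 0.68 (adjusted p = 0.019), Lmbrd1 at 0.44 (adjusted p = 0.0303) and Mfsd8 at -0.50 (adjusted p = 0.044). The Rag group had 2 higher and 2 lower of 17, with Fnip2 at 0.99 (adjusted p = 0.0015), Rraga at 0.77 (adjusted p = 0.000158) and Tfec at -0.77 (adjusted p = 0.0247). Of 9 sorting genes 1 rose and 2 fell, Gga2 at 0.79 (adjusted p = 0.00176), Gnptab at -0.46 (adjusted p = 0.013) and Gga3 at -0.34 (adjusted p = 0.0482). Of 10 other V-ATPase genes Atp6v0a2 fell, at -0.40 (adjusted p = 0.018). Exons of Sgsh, Dnase2a, Gga3, Gnptab, Gabarapl1 and Atg9a overlap those of another gene.

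**Figure D4:**
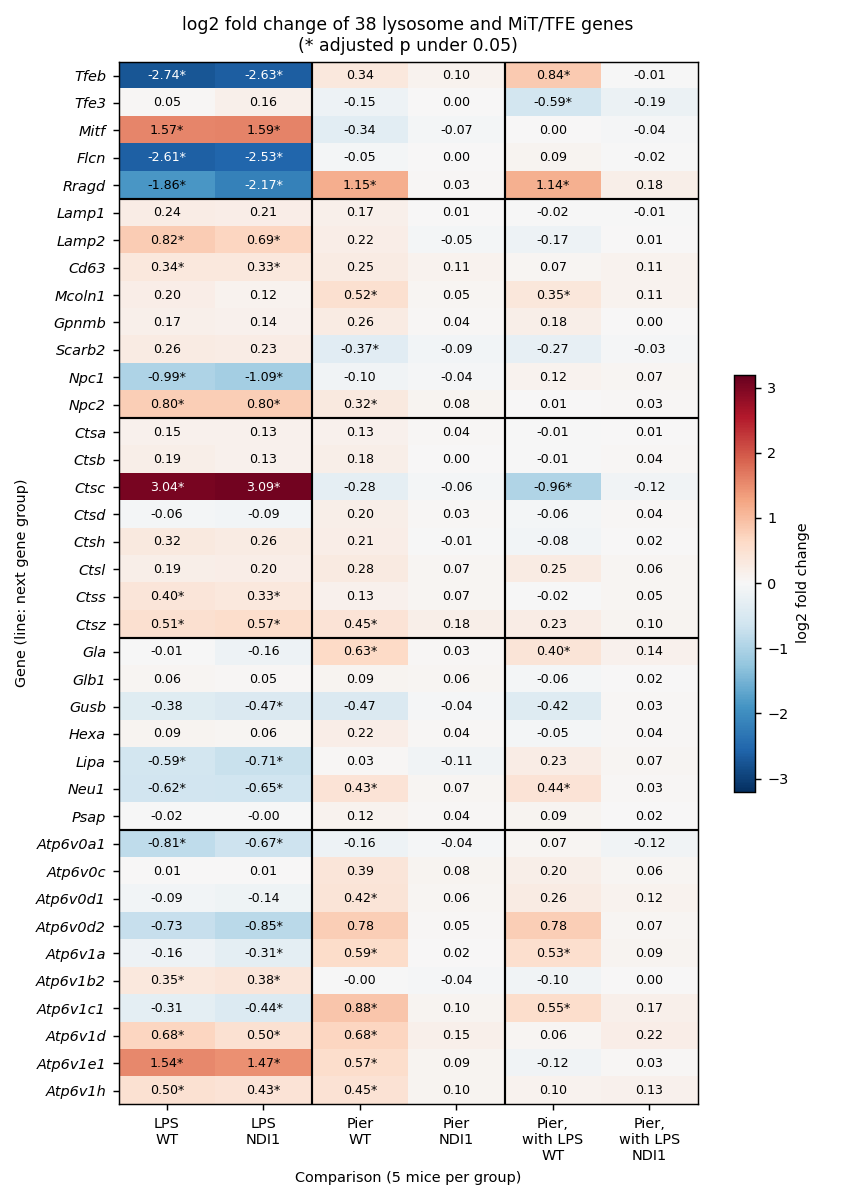
log2 fold change of each of the 38 genes (rows, by group) in 6 comparisons (columns): LPS against untreated, piericidin A (Pier) against untreated, and piericidin A with LPS against LPS alone, in WT and NDI1 BMDMs (5 mice per group), with an asterisk where the adjusted p of edgeR was under 0.05. LPS columns of the 2 genotypes share their calls in 18 genes, while the piericidin A columns of NDI1 cells hold no call and values of -0.19 to 0.22; with scaling to library totals the LPS values of Cd63, Ctss, Ctsz, Atp6v1b2, Atp6v1d and Atp6v1h, and of Lamp2 in NDI1 cells, turn negative.

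Whether the piericidin A effect differed between genotypes was tested as the effect in NDI1 cells minus that in WT cells. Without LPS no member passed this test in the fit without a block, where 1.27% of all genes did. An unadjusted p under 0.05 in edgeR was found for 9 members, and the share of all genes at that level is not given here. DESeq2 called 4 (Mcoln1, Gla, Atp6v1c1 and Atp6v1d), all lower in NDI1 cells, beside 1.74% of all genes lower and 0.742% higher. Without mouse 452, 453 or 447 in turn edgeR called 1, and the share of all genes in these fits is not given here. The median difference was -0.19 over the members and 0.0061 over all genes. With the mouse as a block 13 were called, 12 of them lower in NDI1 cells and Gusb higher, beside 5.15% and 3.81% of all genes, and with 496 and 503 left out of that fit 4 were called, all lower, beside 2.35% and 0.979%. The 12 were Rragd, Mcoln1, Gla, Neu1 and 8 of the 10 V-ATPase genes. Differences with the block were -1.19 ± 0.25 for Rragd (SE, adjusted p = 0.00225), -0.79 ± 0.15 for Atp6v0d2 (0.000531), -0.79 ± 0.13 for Atp6v1c1 (0.000158), -0.61 ± 0.13 for Gla (0.00246) and -0.47 ± 0.12 for Mcoln1 (0.013). Without the block the same 5 had -1.12 ± 0.39 (adjusted p = 0.18), -0.74 ± 0.51 (0.637), -0.78 ± 0.23 (0.0875), -0.60 ± 0.17 (0.0603) and -0.47 ± 0.14 (0.0922), so the sizes were alike and the errors larger. With LPS no member passed without the block, where 0.979% of all genes did, and DESeq2 called none. Here 5 members had an unadjusted p under 0.05, again with no share of all genes beside it. With the block 3 were higher in NDI1 cells (Tfe3, Ctsc and Gusb) and 3 lower (Rragd, Neu1 and Atp6v0d2), beside 4.7% and 4.81% of all genes, and 1 was called, lower, with 496 and 503 left out of that fit, beside 1.54% of all genes lower and 0.911% higher.

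Set directly against WT cells under the same treatment, NDI1 cells with piericidin A had 10 members lower and none higher, beside 4.31% and 3.48% of all genes. The WT libraries of this comparison are those that gave the piericidin A effect in WT cells, so the values below are not independent of it. Lower were Rragd (-1.15 ± 0.27 SE, adjusted p = 0.00565), Atp6v1c1 (-0.73 ± 0.16 SE, adjusted p = 0.00355), Gla (-0.59 ± 0.12 SE, adjusted p = 0.000765), Atp6v1d (-0.57 ± 0.11 SE, adjusted p = 0.000746) and Atp6v1a (-0.57 ± 0.14 SE, adjusted p = 0.00627). Smaller differences, of -0.42 to -0.28, were those of Atp6v1e1, Atp6v1h, Mcoln1, Atp6v0d1 and Npc2. The count was 6 without mouse 496, 6 without mouse 461, 5 without 496 and 503 and 5 with only the compared groups in the fit, all lower, beside 3.27%, 3.21%, 2.73% and 2.62% of all genes lower. With LPS and piericidin A 5 members were lower and 1 higher in NDI1 cells, beside 6.13% and 5.86% of all genes. These were Rragd (-1.31 ± 0.30 SE, adjusted p = 0.00362), Tfeb (-0.79 ± 0.24 SE, adjusted p = 0.0228), Atp6v1a (-0.59 ± 0.14 SE, adjusted p = 0.0044), Gla (-0.41 ± 0.12 SE, adjusted p = 0.0177) and Neu1 (-0.40 ± 0.12 SE, adjusted p = 0.0277) on the lower side, and Tfe3 (0.45 ± 0.13 SE, adjusted p = 0.0158) on the higher. This count was 3 without mouse 496, 461 or 503, 2 without mouse 520, and 1 without 496 and 503 together or with only the compared groups, the last 2 beside 3.13% and 2.49% of all genes lower. For the fits without a single mouse the share of all genes is not given here. No tested marker of another cell type was called in either comparison, with medians over the neutrophil and precursor markers of -1.09 and -1.22, over the fibroblast markers of -1.87 and -2.38, over the B cell markers of -0.22 and -1.03, over the dendritic cell markers of -0.28 and -0.66 and over the osteoclast markers of -0.18 and 0.18. Their part was not tested.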

How the data were processed

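RNA-seq libraries of BMDMs from 5 WT and 5 NDI1 mice, each under 4 treatments, were grouped by genotype and treatment as their labels give them. The deposited values are raw counts of reads per gene, which the authors made with bcl2fastq, Trimmomatic, STAR and HTSeq on mm10 (versions of bcl2fastq, STAR and HTSeq are not given in the sources used here). The members and gene lists were chosen with earlier results of these data known. Genes named outside the 38 were up to 3 called genes per list and comparison with the largest absolute log2 fold change. A gene that this rule picks is not reported here. Of 43430 genes, 42462 were paired with a symbol, and 1 column that belongs to no sample was not used.

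Counts were filtered with filterByExpr, scaled by TMM and fitted in edgeR 4.0.16 (R 4.3.3; quasi-likelihood test) with a mean for each of 8 groups over all 40 libraries. P-values were adjusted by Benjamini-Hochberg over 11853 genes at a threshold of 0.05 (two-sided). A prior count of 2 was used for log2 CPM values, from which the changes in single mice come, and not for the fitted fold changes. Alternatives were DESeq2 1.42.0, other size factors and filters, fewer libraries and a fit with the mouse as blocking factor. Deviations from the group means were shared within a mouse (mean r = 0.453 over 60 pairs, lowest 0.0995). Over 240 pairs of different mice of the same genotype under different treatments the mean r was -0.107. Centring each group on its mean pushes this value below 0, so it is not an independent contrast. The labels number the mice, so the block pairs the 4 libraries of a mouse. All 80 pairs of libraries within a group differed by more than counting noise (lowest chi-square per degree of freedom 9.35). Lengths per gene for the CPM per kb scale came from the GENCODE annotation, because the deposited length exceeded the gene's span in 1982 genes.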

Additional observations from a re-analysis of the deposited data

Results flagged for a closer look

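In 4 of 96 groups of 5 libraries tested for the 12 genes with full values, 1 library stood apart from the rest by Dixon's test (critical value 0.71), where chance gives about 1 in 20. These were Tfeb in untreated WT cells, lowest in mouse 453 at 52.1 CPM, Tfe3 in untreated NDI1 cells, highest in mouse 503 at 162 CPM, Mcoln1 in NDI1 cells with LPS, highest in mouse 447 at 50.5 CPM, and Neu1 in WT cells with LPS, highest in mouse 453 at 68.8 CPM.

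The piericidin A effect without LPS differed between genotypes (NDI1 minus WT, edgeR with the mouse as a block, log2 scale) for 13 members. The differences were -1.19 for Rragd, -0.47 for Mcoln1, -0.61 for Gla, 0.47 for Gusb and -0.37 for Neu1. Among the V-ATPase genes they were -0.32 for Atp6v0c, -0.36 for Atp6v0d1, -0.79 for Atp6v0d2, -0.57 for Atp6v1a, -0.79 for Atp6v1c1, -0.54 for Atp6v1d, -0.46 for Atp6v1e1 and -0.37 for Atp6v1h. Without the block edgeR called none of the 13 and DESeq2 called 4 of them (Mcoln1, Gla, Atp6v1c1 and Atp6v1d), and 4 were called by the blocked fit without mice 496 and 503. With LPS the differences called in the blocked fit were 0.39 for Tfe3, -0.99 for Rragd, 0.76 for Ctsc, 0.48 for Gusb, -0.42 for Neu1 and -0.79 for Atp6v0d2.

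In WT cells the piericidin A effect was lower with LPS than without it, by log2 differences of -0.62 for Atp6v1d and -0.69 for Atp6v1e1 without a block. In the blocked fit it also differed for Tfe3 (-0.43), Lamp2 (-0.39), Npc2 (-0.32) and Atp6v1h (-0.35).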

How the results depend on the processing

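With the mouse as a block (the pairing of the 4 libraries of a mouse), the number of the 38 genes called was 28 for LPS in WT cells (18 without the block), 24 for piericidin A in WT cells (13), 17 for piericidin A under LPS in WT cells (9), 13 and 6 for the genotype differences of these effects (0 and 0) and 6 for the change of the effect by LPS in WT cells (2), and it changed no call of the 64 made without it. With the block and without mice 496 and 503 (chosen after seeing the data) the counts were 28 for LPS in WT cells, 4 and 1 for the genotype differences, and 1 of 64 calls was lost (Tfeb for piericidin A under LPS in WT cells, adjusted p = 0.0543). Without both mice and no block they were 7 for piericidin A, 2 under LPS and 0 for the change by LPS in WT cells, and 5 and 1 for NDI1 against WT with piericidin A and with both agents. With only the compared groups the last 2 were 5 and 1, and piericidin A under LPS in WT cells gave 3. DESeq2 called 4 for the genotype difference without LPS. Leaving out 1 mouse at a time gave 7 to 14 for piericidin A in WT cells, 1 to 10 under LPS, 0 to 1 for the genotype difference without LPS, 0 to 2 for the change by LPS, and 6 to 11 and 2 to 7 for NDI1 against WT with piericidin A and with both agents. Where the share of all genes is given above for the loss of 1 mouse, it was lower as well, and for the other mice it is not given.

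With library totals in place of TMM (chosen after seeing the data) 33 genes were called for LPS in WT and 34 in NDI1 cells, beside 14.6% of all genes higher and 66.3% lower in WT and 14.6% and 66.1% in NDI1 cells, and 1 for the change of the piericidin A effect by LPS in WT cells, beside 4.7% and 1.19%. The LPS change then turned negative for Cd63 (-0.43 and -0.43 in WT and NDI1 cells), Ctss (-0.39 and -0.44), Ctsz (-0.26 and -0.19), Atp6v1b2 (-0.44 and -0.40), Atp6v1d (-0.11 and -0.28), Atp6v1h (-0.29 and -0.35) and, in NDI1 cells, Lamp2 (-0.092). The cause of these differences was not tested.

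Of the 80 calls for single genes, DESeq2 and RLE factors lost 0, the filter of at least 10 counts in every library 3, no filter 16, only the compared groups 22, the loss of mouse 496 alone 24 and that of 496 and 503 together 28, none with a change of sign. With library totals 14 were lost and 13 changed sign. The lowest count of a member in any library was 32, and 5 mice per group limit the precision.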
